A study of Mus musculus with 2 samples.

Results

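This account concerns 9 genes that together mark interleukin 17-producing gamma-delta T cells: the cytokine gene *Il17a*, the cytokine receptor genes *Il23r* and *Il17re*, the scavenger receptor genes *Scart1* and *Scart2*, the kinase gene *Blk*, and the T cell receptor constant segments *Trdc*, *Trgc1* and *Trgc2*. They are 9 of the 55357 gene identifiers in both count matrices, and were picked by name after results of these same libraries had been seen. Their levels are therefore given as descriptions. RNA was measured by droplet single-cell sequencing of CD45+ cells from subcutaneous tumours of MC38, a mouse colon carcinoma line, grown in C57BL/6 mice of 2 kinds, UEIS LSL and UEIS KI. Neither name is expanded in the labels, which give no age and do not say if mice were pooled. Each group held 1 library, so no difference was tested. Every 95% interval covers counting error only and not the variation between mice. Intervals on UMI sums treat each UMI as independent, so they also leave out the spread between cells and are too narrow to that extent.

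Gamma-delta T cells carry a receptor built from a gamma and a delta chain in place of the alpha and beta chains of conventional T cells. Some of them leave the thymus already set to make interleukin 17A, a cytokine that acts on epithelial, stromal and myeloid cells and promotes the recruitment of neutrophils, and interleukin 1 and interleukin 23 from myeloid cells drive its release. *Il23r* encodes the receptor subunit for interleukin 23 and *Il17re* a receptor chain of the interleukin 17 receptor family. *Scart1* and *Scart2* encode related receptors with scavenger receptor cysteine-rich domains that have been described on subsets of these cells with different variable segments. *Blk*, a Src-family kinase best known from B cells, takes part in the development of the interleukin 17-producing kind.

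The members lie on 5 chromosomes of the mouse genome (GRCm38, GENCODE vM21). *Il17a* lies on chromosome 1 (20730905 to 20734496), *Il23r* and *Il17re* on chromosome 6 (67422932 to 67491855 and 113458484 to 113470758) and *Blk* on chromosome 14 (63372836 to 63417037). *Trdc* lies on chromosome 14 as well (54142851 to 54148868). *Scart1* (140218267 to 140231145) and *Scart2* (140247284 to 140300736) are neighbours on chromosome 7, 16138 bases apart, and their transcripts were 55.7% identical with no stretch of 90 bases in common. *Trgc1* (19214103 to 19217024) and *Trgc2* (19304649 to 19307551) lie on opposite strands of chromosome 13. Their transcripts, of 924 and 914 bases, were 94.0% identical over 929 aligned columns, which bears on how far their UMIs (unique molecular identifiers, each standing for 1 captured RNA molecule) can be told apart. Of the 835 stretches of 90 bases in *Trgc1*, 15 (1.80%) also occurred in *Trgc2*. How the authors' counting treated reads that fit both is not given in the sources used here, so values of this pair are uncertain to that extent. The second exon shows how close the copies are. In GENCODE vM21 it spans chr13:19215864-19215908 on the plus strand in *Trgc1* and chr13:19305769-19305798 on the minus strand in *Trgc2*, and the capitals mark the 15 bases of *Trgc1* that *Trgc2* lacks.
Trgc1 exon 2: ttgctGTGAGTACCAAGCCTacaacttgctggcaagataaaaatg
Trgc2 exon 2: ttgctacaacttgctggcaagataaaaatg

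Promoter windows of *Il17a* and of the Scart pair are shown because the RNA of these genes carries the comparison of the libraries below. Each holds 250 bases before and 50 after an annotated start, read 5′ to 3′ on the plus strand from RefSeq (GRCm38.p6): chr1:20730655-20730954 for *Il17a*, chr7:140218017-140218316 for *Scart1* (listed as Cd163l1) and chr7:140247051-140247350 for the first of 3 *Scart2* starts (listed as 5830411N06Rik). Capitals mark the letters TGACCT or AGGTCA, the same half-site on either strand, which many nuclear receptors can bind.
Il17a promoter: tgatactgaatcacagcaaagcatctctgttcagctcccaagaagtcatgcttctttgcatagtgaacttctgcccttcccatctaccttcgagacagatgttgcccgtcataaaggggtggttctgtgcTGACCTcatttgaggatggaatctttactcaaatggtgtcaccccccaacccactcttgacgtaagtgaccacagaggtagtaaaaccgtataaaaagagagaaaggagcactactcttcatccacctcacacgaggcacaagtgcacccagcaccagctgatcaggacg
Scart1 promoter: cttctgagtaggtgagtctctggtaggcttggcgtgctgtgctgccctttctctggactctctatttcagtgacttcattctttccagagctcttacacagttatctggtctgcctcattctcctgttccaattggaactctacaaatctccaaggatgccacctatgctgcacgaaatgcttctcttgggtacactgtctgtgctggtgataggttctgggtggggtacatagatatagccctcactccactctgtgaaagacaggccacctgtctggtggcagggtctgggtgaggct
Scart2 promoter: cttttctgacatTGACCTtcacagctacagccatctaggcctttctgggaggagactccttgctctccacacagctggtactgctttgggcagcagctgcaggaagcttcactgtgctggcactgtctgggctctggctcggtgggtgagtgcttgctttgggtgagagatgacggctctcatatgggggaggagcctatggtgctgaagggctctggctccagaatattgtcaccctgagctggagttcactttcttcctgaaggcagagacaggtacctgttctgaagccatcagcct

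The letters occurred 120 bases before the start of *Il17a* and 238 bases before that of *Scart2*, and not in the *Scart1* window. They also occurred 229 and 66 bases before the start of *Il23r*, and not in the *Il17re* window. Windows of the same length held the letters in 5340 of 32851 cases (16.3%) over all genes in the table, and a match is no more than these letters being there. Windows were matched for 5 of the 9 members.

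The libraries held 9527 barcodes with 92764697 UMIs in UEIS LSL and 9734 barcodes with 99404988 UMIs in UEIS KI, and 8647 and 8685 barcodes were kept. A kept barcode with at least 1 UMI of *Trdc* was called Trdc-positive, 1 with none of *Trdc* but at least 1 of *Cd3d*, *Cd3e* or *Cd3g* was called other Cd3-positive, and all others were called remaining. UEIS LSL held 42 Trdc-positive barcodes (0.486%, exact Clopper-Pearson interval 0.350 to 0.656) and UEIS KI held 43 (0.495%, 0.359 to 0.666). The log2 ratio of these shares, UEIS KI over UEIS LSL, was 0.03 (-0.62 to 0.68, exact conditional binomial interval). Other Cd3-positive barcodes, with median totals of 9600 and 4128 UMIs, numbered 374 (4.33%) and 216 (2.49%), a log2 ratio of -0.80 (-1.05 to -0.55). Other Cd3-positive barcodes were thus fewer in UEIS KI, while those with *Trdc* were nearly equal in number. Among kept barcodes with under 2 UMIs of the C1q macrophage genes per 1000 alone, Trdc-positive barcodes numbered 24 and 36, a log2 ratio of 0.70 (-0.08 to 1.51), and other Cd3-positive barcodes 168 and 129, at -0.26 (-0.61 to 0.08). Of the 34 barcode sequences found in both libraries, 25 were kept in both, and 1 of these was Trdc-positive, in UEIS LSL.

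The Trdc-positive barcodes differed in depth and in macrophage RNA. Their median total was 6589.5 UMIs in UEIS LSL and 2612 in UEIS KI, against 7866 and 8733 in the remaining barcodes. UMIs of the macrophage complement genes *C1qa*, *C1qb* and *C1qc* made up a median of 1.10 per 1000 UMIs in UEIS LSL and 0.703 in UEIS KI, and fell under 2 per 1000 in 24 of 42 (57.1%, 41.0 to 72.3) and 36 of 43 (83.7%, 69.3 to 93.2). All 8 genes of a macrophage marker list were seen in Trdc-positive barcodes of both libraries, with a summed level of 10715 CPM (UMIs per 1000000 UMIs of the class) in UEIS LSL and 4823 CPM in the other library. Likewise the 4 fibroblast markers summed to 36.7 and 429 CPM there, and the 4 epithelial markers listed for MC38 were at 0. Levels of the members in CPM are therefore given beside levels per *Cd3* UMI, which added macrophage UMIs do not lower. Shares at equal depth are given as well, and these are lowered by such UMIs as CPM is. How much of any difference comes with this RNA was not tested. *Ptprc*, the CD45 gene used for the sort, was seen in 33 of 42 and 31 of 43 Trdc-positive barcodes, and *Cd3g* in 33 and 36. Of 9 markers of conventional alpha-beta T cells, 6 were seen in the class in each library, at a summed 432 and 766 CPM, and *Cd4* and *Cd8a* were at 0 in both. *Trac*, the alpha chain constant segment, was seen in 7 and 4 Trdc-positive barcodes, and the beta chain segments *Trbc1* in 20 and 20 and *Trbc2* in 19 and 30. At least 2 of the 9 markers were seen in 19 of 42 and 16 of 43, and the part of such cells in the class values was not tested.

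The members were detected mainly in Trdc-positive barcodes. In that class *Trgc1* was seen in 28 of 42 UEIS LSL barcodes (66.7%, 50.5 to 80.4) and 27 of 43 UEIS KI barcodes (62.8%, 46.7 to 77.0). In other Cd3-positive barcodes it was seen in 2.41% and 2.31%, and in the remaining barcodes, which should lack it, in 0.0243% and 0.0356%. This order of the classes held in both libraries for *Il17a*, *Il17re*, *Scart2*, *Blk* and *Trgc2* as well. *Scart1* and *Il23r* were also seen most often in Trdc-positive barcodes of both libraries, and outside them in 0.463% or less of either class. The share of a gene's UMIs that fell in Trdc-positive barcodes was 91.8% and 95.5% for *Scart1*, 91.7% and 95.6% for *Scart2*, 86.0% and 85.9% for *Trgc1*, and 64.6% and 85.2% for *Il17a*. *Trgc2* stood apart, with 23.6% of its UMIs in Trdc-positive barcodes in UEIS LSL and 77.3% in UEIS KI.

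**Figure D1:**
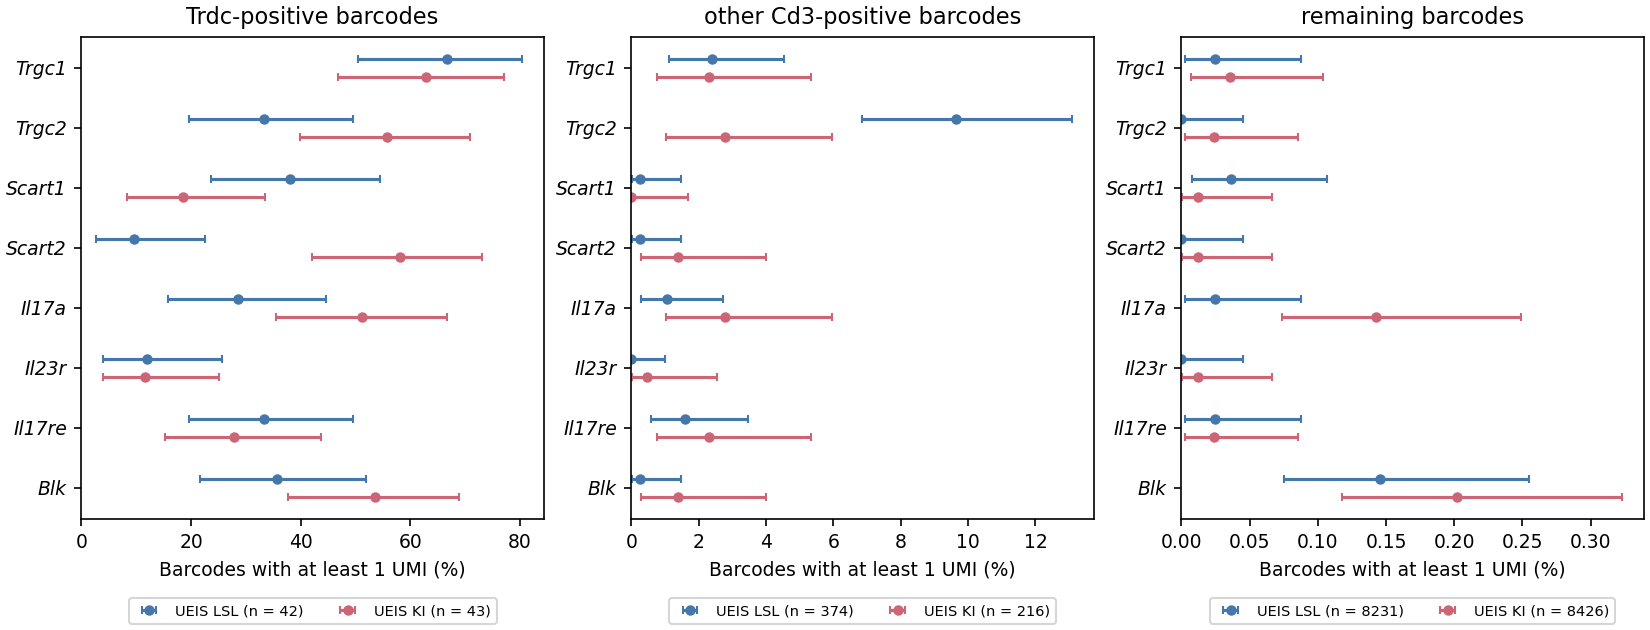
Share of barcodes with at least 1 UMI of each gene (x axis, percent, a separate scale for each class) in UEIS LSL (blue) and UEIS KI (red), with exact 95% Clopper-Pearson intervals as bars. In Trdc-positive barcodes *Scart2* went from 9.52% to 58.1%, while the shares in remaining barcodes stayed at or under 0.202%.

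The delta chain segment *Trdc* set the class, so its share there is fixed and only its level is described. Trdc-positive barcodes held 249 UMIs of it in UEIS LSL and 138 in UEIS KI, or 5.93 and 3.21 per barcode, with medians of 4 and 2 and highest values of 33 and 16. It stood at 762 and 704 CPM, a log2 ratio of -0.11 (-0.42 to 0.19), and per 100 UMIs of *Cd3d*, *Cd3e* and *Cd3g* in the same barcodes at 93.6 and 41.9, a log2 ratio of -1.16 (-1.47 to -0.85). The count of positive barcodes was thus alike, and the UMIs in each were fewer in UEIS KI, whose barcodes were also shallower. Just inside the class limit lay 12 and 13 barcodes with exactly 1 *Trdc* UMI. Of these, 10 in UEIS LSL and 6 in UEIS KI showed no other member, and 2 and 7 showed at least 3. Just outside it, 5 and 4 other Cd3-positive barcodes showed at least 3 members without *Trdc*.

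The gamma chain segments went opposite ways within the class per *Cd3* UMI, although at equal depth (below) both were seen in more barcodes of UEIS KI. *Trgc1* gave 111 UMIs in UEIS LSL and 61 in UEIS KI, 3.96 and 2.26 per positive barcode, a log2 ratio of -0.81 (-1.29 to -0.35) at nearly equal shares of positive barcodes. *Trgc2* gave 34 UMIs in 14 barcodes (33.3%, 19.6 to 49.5) and 75 UMIs in 24 barcodes (55.8%, 39.9 to 70.9). Per 100 *Cd3* UMIs, *Trgc1* went from 41.7 to 18.5, a log2 ratio of -1.17 (-1.65 to -0.71), and *Trgc2* from 12.8 to 22.8, at 0.83 (0.23 to 1.46). In CPM *Trgc1* stood at -0.13 (-0.60 to 0.34) and *Trgc2* at 1.88 (1.28 to 2.51), so the fall of *Trgc1* depended on the scale. In UEIS LSL, *Trgc2* appeared in 14 barcodes and each of them also showed *Trgc1*, with 14 more showing *Trgc1* alone. In UEIS KI both were seen in 18 barcodes, *Trgc1* alone in 9 and *Trgc2* alone in 6. Within the class, barcodes with *Trgc2* and no *Trgc1* were therefore found in UEIS KI alone. The class median was 2612 UMIs there against 6589.5 in UEIS LSL, and the part of depth in these counts was not tested.

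The scavenger receptor neighbours stood in opposite order in the libraries at the deposited depth, and at equal depth (below) the order of *Scart1* turned. *Scart1* was seen in 16 of 42 Trdc-positive barcodes (38.1%, 23.6 to 54.4) in UEIS LSL, with 1 to 8 UMIs each and 45 in all, and in 8 of 43 (18.6%, 8.39 to 33.4) in UEIS KI, with 1 to 6 UMIs each and 21 in all. *Scart2* was seen in 4 of 42 (9.52%, 2.66 to 22.6) in UEIS LSL, with 1, 2, 3 and 5 UMIs, and in 25 of 43 (58.1%, 42.1 to 73.0) in UEIS KI, with 1 to 12 UMIs each and 87 in all. *Scart1* was the more frequent of the pair in UEIS LSL barcodes and *Scart2* in UEIS KI barcodes. The log2 ratio of the *Scart2* share was 2.61 (1.08 to 4.59), and that of its UMIs per positive barcode 0.34 (-0.57 to 1.39) at the lower depth of UEIS KI. Scaled to the UMIs of the positive barcodes, its level there was 2.12-fold (1.13 to 4.41) that of UEIS LSL. A positive barcode holds at least 1 UMI, so this scale starts higher in shallower barcodes, and no difference in level is read from it. Per 100 *Cd3* UMIs, *Scart2* went from 4.14 to 26.4, a 6.39-fold ratio (3.40 to 13.3), and *Scart1* from 16.9 to 6.38, a log2 ratio of -1.41 (-2.23 to -0.63). In CPM the log2 ratio was 3.72 (2.81 to 4.78) for *Scart2* and -0.36 (-1.18 to 0.42) for *Scart1*, so the fall of *Scart1* depended on the scale.

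The Scart genes were seldom seen in the same barcode. In UEIS LSL, 16 barcodes had *Scart1* alone, 4 had *Scart2* alone, and 0 had both. In UEIS KI the counts were 7, 24 and 1. With only 4 *Scart2* barcodes in UEIS LSL, the count of 0 with both genes there says little. Every *Scart1* barcode, 16 and 8, also showed *Trgc1*, whereas of the 25 *Scart2* barcodes of UEIS KI 18 showed *Trgc1* and 18 showed *Trgc2*. The *Trgc1* and *Trgc2* UMIs in the 16 barcodes with *Scart1* alone in UEIS LSL came to 80 and 23, and in the 24 barcodes with *Scart2* alone in UEIS KI to 37 and 56. The delta chain variable segment *Trdv4* was seen in 7 Trdc-positive barcodes of UEIS LSL, 6 of them with *Scart1* and 0 with *Scart2*. In UEIS KI it was seen in 0 of 43, which allows up to 6.98% of barcodes with a UMI for a count of 0, at less than the depth of UEIS LSL. The 16 *Scart1* barcodes of UEIS LSL had a median of 6564 UMIs and the 25 *Scart2* barcodes of UEIS KI 2607.

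**Figure D2:**
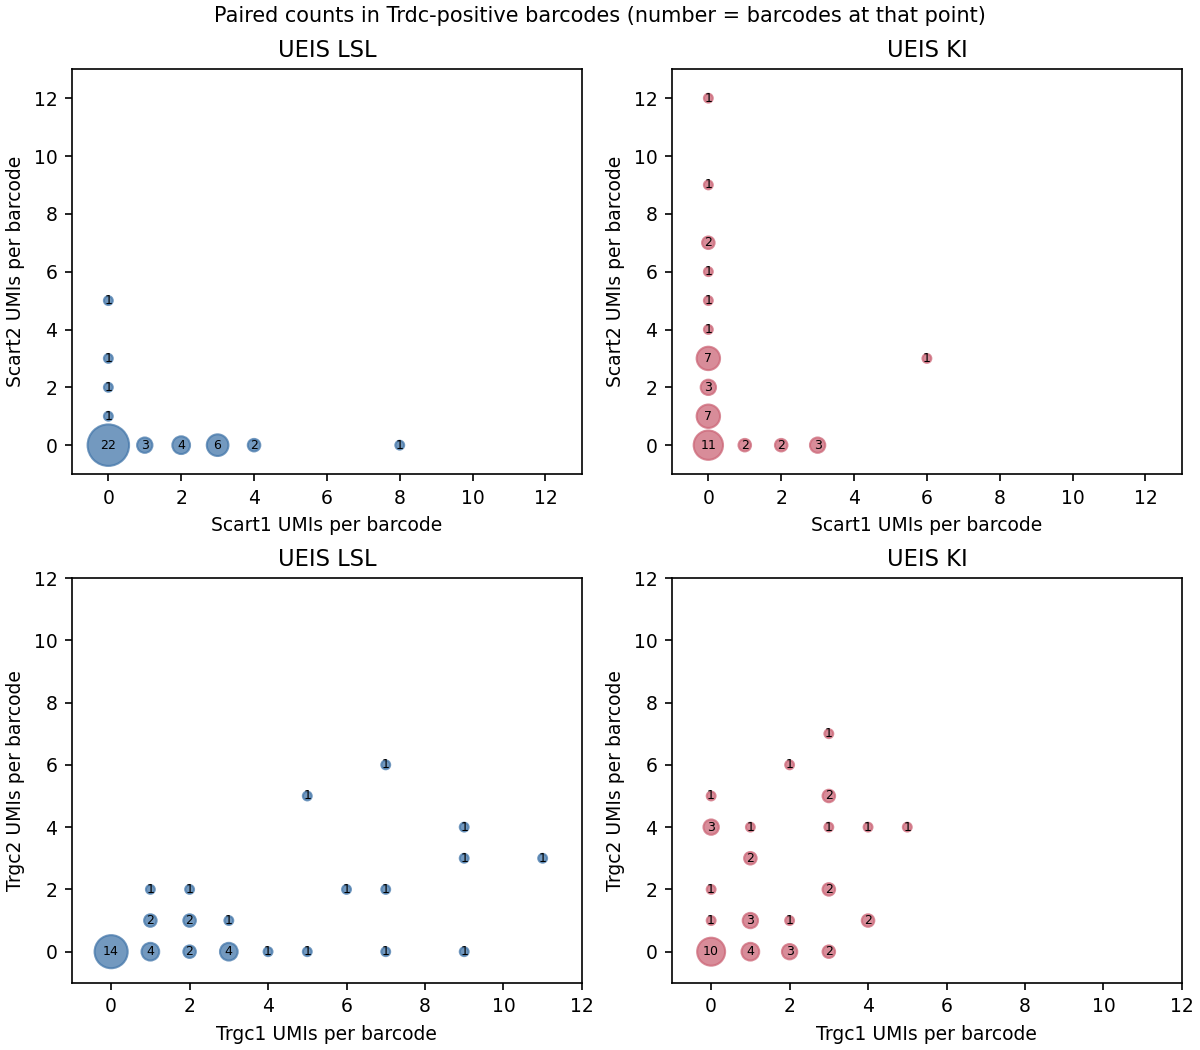
UMIs of *Scart1* against *Scart2* (top) and of *Trgc1* against *Trgc2* (bottom) in each Trdc-positive barcode of UEIS LSL (left) and UEIS KI (right), with circle area and the printed number giving the barcodes at that point. Barcodes of the Scart pair lie along the axes, with a single barcode of UEIS KI off both. Barcodes with *Trgc2* on the vertical axis of the *Trgc* pair occur in UEIS KI alone, the library with shallower Trdc-positive barcodes.

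*Il17a*, the cytokine itself, was higher in UEIS KI in count, in share and per barcode. In Trdc-positive barcodes of UEIS LSL it gave 93 UMIs in 12 of 42 barcodes (28.6%, 15.7 to 44.6), namely 1, 1, 1, 2, 3, 3, 4, 5, 8, 18, 21 and 26. In UEIS KI it gave 253 UMIs in 22 of 43 (51.2%, 35.5 to 66.7), from 1 to 46 with a median of 5. The ranges overlapped over most of their length, with 4 barcodes of UEIS KI, at 27, 30, 34 and 46, above the highest of UEIS LSL. The log2 ratio was 0.84 (-0.24 to 1.99) for the share of positive barcodes and 0.57 (0.22 to 0.93) for UMIs per positive barcode. CPM divides further by the UMIs of the class, 326726 in UEIS LSL and 195922 in UEIS KI. In CPM *Il17a* went from 285 to 1291, a 4.54-fold ratio (3.56 to 5.82), which therefore holds this difference in total UMIs as well. Per 100 *Cd3* UMIs it went from 35.0 to 76.9, a 2.20-fold ratio (1.73 to 2.82). These intervals leave out the spread of UMIs between barcodes. The ratio in CPM was thus about a log2 unit above that per *Cd3* UMI, in a class whose median depth was lower in UEIS KI.

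In UEIS KI most *Il17a* UMIs lay in barcodes with *Scart2* alone, at the unequal depth of the libraries. In UEIS LSL as many lay in barcodes with *Scart1* alone as in barcodes with neither gene. In UEIS LSL the 16 barcodes with *Scart1* alone held 45 of the *Il17a* UMIs (48.4%) in 7 barcodes, with 26 of these UMIs in 1 barcode. The 4 with *Scart2* alone held 3 (3.23%) in 1. In UEIS KI the 24 barcodes with *Scart2* alone held 215 (85.0%) in 17, and the 7 with *Scart1* alone held 9 (3.56%) in 3. Barcodes with neither gene held 45 UMIs in 4 barcodes and 29 UMIs in 2. *Il17a* was detected in 0 barcodes together with *Ifng*, the interferon-gamma gene, which was seen in 6 and 3 Trdc-positive barcodes. Of these *Ifng* barcodes, 5 and 3 showed no member besides *Trdc*. No separation of *Il17a* and *Ifng* is therefore read from these counts.

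**Figure D3:**
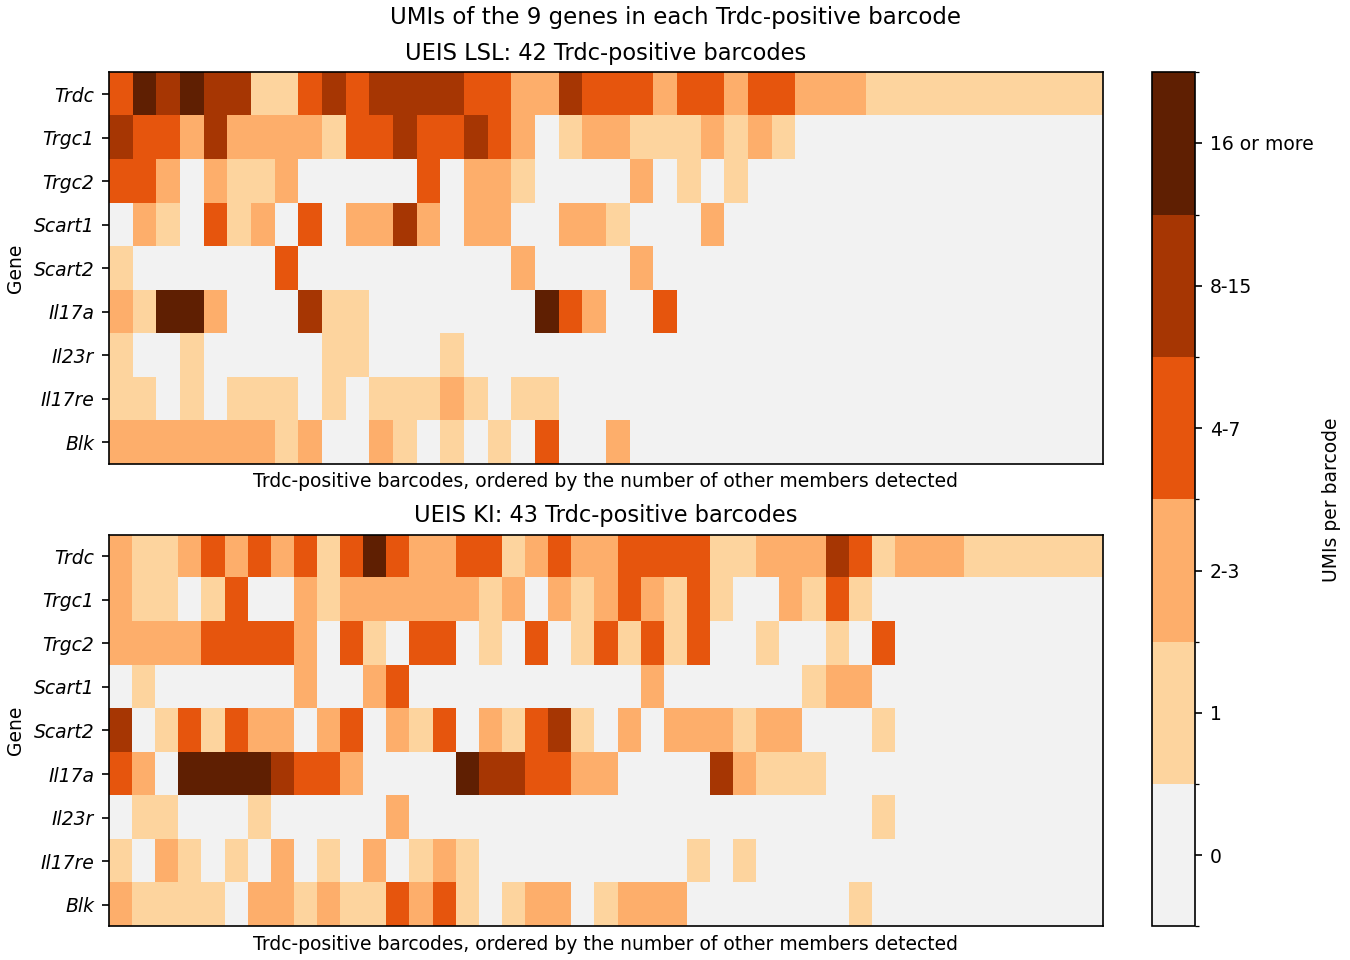
UMIs of the 9 genes (rows, colour scale from 0 to 16 or more) in every Trdc-positive barcode (columns, ordered by the number of other members detected), 42 in UEIS LSL (top) and 43 in UEIS KI (bottom). At this unequal depth *Scart1* is filled more often in the upper panel and *Scart2* in the lower, and the barcodes at the right edge, 13 and 9, show *Trdc* with no other member.

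The cytokine receptor genes were sparser, and they and the kinase gene lay near equality per *Cd3* UMI. *Il23r* gave 5 UMIs in 5 barcodes and 6 UMIs in 5 barcodes, shares of 11.9% (3.98 to 25.6) and 11.6% (3.89 to 25.1) with a log2 ratio of -0.03 (-2.15 to 2.09), an interval that reaches past 4-fold either way. *Il17re* gave 15 UMIs in 14 barcodes (33.3%) and 19 UMIs in 12 barcodes (27.9%), with at most 2 and 3 in a barcode. Its ratio was 1.08 (0.02 to 2.16) on the log2 scale in CPM and 0.03 (-1.02 to 1.11) per *Cd3* UMI. *Blk* gave 33 UMIs in 15 barcodes (35.7%, 21.6 to 52.0) and 45 UMIs in 23 barcodes (53.5%, 37.7 to 68.8), with at most 4 in any. Its log2 ratio was 1.19 (0.51 to 1.88) in CPM and 0.14 (-0.54 to 0.83) per *Cd3* UMI. For these 3 genes no difference per *Cd3* UMI was detectable at this depth.

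Over all kept barcodes the members were divided in direction. Of the 8 members with at least 50 UMIs over both libraries, 2 were at least 1.5-fold higher in UEIS KI (*Il17a* and *Scart2*), against 4.01% of all 14976 genes measured. Another 4 were at least 1.5-fold lower (*Scart1*, *Trdc*, *Trgc1* and *Trgc2*), against 10.4% of all genes, and *Il17re* and *Blk* were neither. None of the 4 lower values held at equal depth, since with every barcode thinned to 1000 UMIs *Scart1*, *Trdc*, *Trgc1* and *Trgc2* stood at log2 ratios of 0.90, 0.084, 0.16 and 0.36, with intervals that included 0. With called doublets kept, *Trgc2* stood at -0.39, within the 1.5-fold limit. The median log2 ratio was -0.33 for the 8 members and -0.0044 for all genes. *Il23r* was not measured by this limit, with 5 and 8 UMIs. *Il17a* went from 1.79 to 3.43 CPM, *Scart2* from 0.149 to 1.05 and *Scart1* from 0.609 to 0.254. These levels mix the number of cells with RNA of a gene and the RNA in each, and in summed counts fewer cells of a type and less RNA per cell cannot be told apart.

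Each ratio was also split into the share of positive barcodes and the UMIs per positive barcode, at the unequal depth of the libraries. For *Il17a*, *Scart1* and *Scart2* the log2 ratios were 1.15 (0.31 to 2.04), -1.16 (-2.48 to 0.04) and 2.53 (1.14 to 4.26) for the share and -0.11, -0.0033 and 0.39 for the UMIs per positive barcode. Of the *Il17a*-positive barcodes, 2 of 18 in UEIS LSL and 12 of 40 in UEIS KI were remaining barcodes, most with 1 UMI. Within Trdc-positive barcodes alone, *Il17a* stood at 0.84 (-0.24 to 1.99) for the share and 0.57 (0.22 to 0.93) for the UMIs per positive barcode. Over all kept barcodes again, *Trdc* and *Trgc1* stood at 0.03 and -0.16 for the share and -0.89 (-1.20 to -0.58) and -0.71 (-1.14 to -0.28) for the UMIs per positive barcode. For *Trgc2* the 2 ratios were -0.65 (-1.34 to 0.02) and 0.07. The second quantity depends on depth. Scaled to the UMIs of the positive barcodes, *Trdc* stood at -0.11 (-0.42 to 0.19) and *Trgc1* at -0.21 (-0.65 to 0.22), so no difference in their level was detectable on that scale. On the same scale *Il17a* stood at 0.32 (0.03 to 0.62), *Scart1* at 0.94 (0.15 to 1.70), *Scart2* at 0.77 (-0.10 to 1.77) and *Trgc2* at 1.16 (0.77 to 1.54). A positive barcode holds at least 1 UMI, so this scale starts higher in shallower barcodes. *Blk* in the remaining barcodes gave 1 UMI per positive barcode in both libraries, yet stood at 1.83 (0.68 to 3.03) on it. No difference in level is therefore read from these values. Thinned to 1000 UMIs, *Trdc* stood at -0.29 (-0.84 to 0.27) in UMIs per positive barcode, and the shares of *Scart1* and *Trgc2* at 0.49 and 0.56, opposite in sign to the unthinned shares.

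Within Trdc-positive barcodes no measured member was lower by this limit in CPM with called doublets left out. Of the 8 members other than *Trdc*, 6 reached 50 UMIs. Of these, 4 were at least 1.5-fold higher in UEIS KI (*Il17a*, *Scart2*, *Blk* and *Trgc2*), against 13.6% of the 1690 genes measured in the class. The count of members at least 1.5-fold lower was 0, against 14.7% of genes, and *Scart1* and *Trgc1* were neither. With called doublets kept, the same 4 were higher, and *Scart1* at -1.02 (-1.76 to -0.31) and *Trgc1* at -0.67 (-1.10 to -0.24) were lower past the limit. The median log2 ratio was 1.53 for the 6 members and 0.03 for all genes of the class. *Cd3d*, *Cd3e* and *Cd3g*, which every T cell uses and which are no members, were higher too, at 0.96, 1.06 and 1.07, whereas the receptor complex genes *Cd247* and *Trgc4* stood at 0.11 and 0.15. *Il17a* and *Scart2* remained above 0 per *Cd3* UMI, as did *Trgc2*, while *Scart1*, *Trdc* and *Trgc1* lay further below it. The counting intervals of all 6 left out 0, without the spread between cells.

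**Figure D4:**
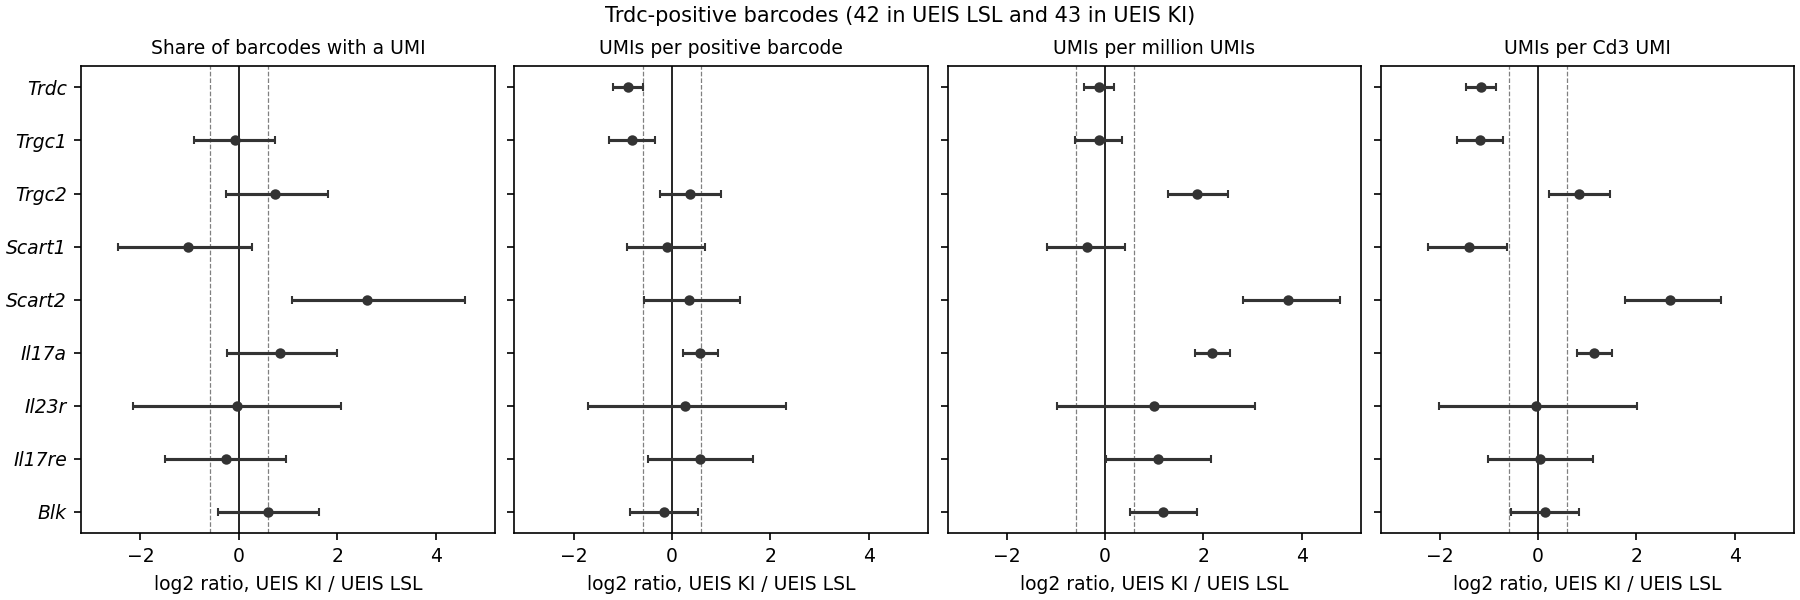
Log2 ratio of UEIS KI over UEIS LSL in Trdc-positive barcodes for the share of barcodes with a UMI, UMIs per positive barcode, UMIs in CPM and UMIs per *Cd3* UMI (4 panels, same x axis), with exact conditional 95% intervals as bars and dashed lines at 1.5-fold. *Scart2* lies to the right in every panel, at 2.61, 0.34, 3.72 and 2.68, and *Trdc* has no share because it defines the class.

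At equal depth the *Scart2* difference remained and the *Scart1* difference did not. After each barcode was thinned at random to 1000 UMIs, with 1 shallower barcode left out of each library, *Scart2* was seen in 3 of 41 Trdc-positive barcodes (7.32%, 1.54 to 19.9) and 17 of 42 (40.5%, 25.6 to 56.7). *Scart1* was seen in 5 of 41 (12.2%, 4.08 to 26.2) and 7 of 42 (16.7%, 6.97 to 31.4), the opposite order to the unthinned 38.1% and 18.6%. Thinned *Trgc2* was seen in 5 of 41 (12.2%) and 17 of 42 (40.5%), and *Trgc1* in 13 of 41 (31.7%) and 20 of 42 (47.6%). Thinned *Il17a* was seen in 8 of 41 (19.5%, 8.82 to 34.9) and 15 of 42 (35.7%, 21.6 to 52.0), and *Blk* in the same numbers of barcodes. *Il17re* was left in 1 and 5 barcodes and *Il23r* in 0 and 2, near the level of 1 UMI, and no difference is read from them. Barcodes with at least 2 C1q UMIs per 1000 had a larger share in UEIS LSL before thinning, and the part of that RNA in the thinned shares was not tested.

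**Figure D5:**
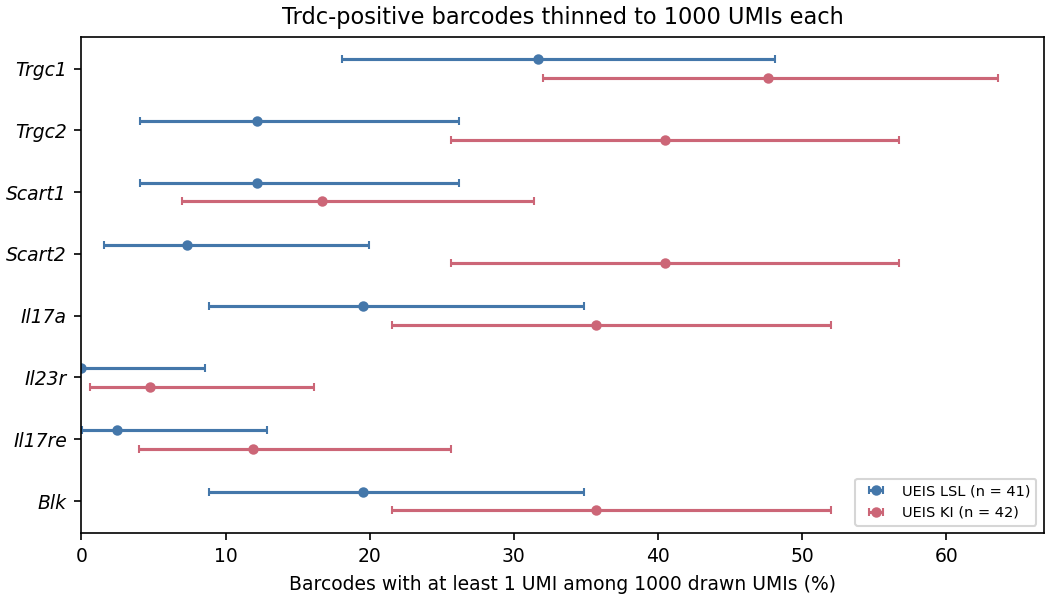
Share of Trdc-positive barcodes with at least 1 UMI of each gene after thinning to 1000 UMIs (x axis, percent), in 41 barcodes of UEIS LSL (blue) and 42 of UEIS KI (red), with exact 95% Clopper-Pearson intervals as bars. The intervals of *Scart2* do not overlap, at 7.32% and 40.5%, and those of *Scart1* overlap over most of their length.

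Trdc-positive barcodes fell into those with many other members and those with none. In UEIS KI, 34 of 43 showed at least 3 of the other 8 members, 9 showed 0, and 0 showed 1 or 2. In UEIS LSL, 23 of 42 showed at least 3, 13 showed 0 and 6 showed 1 or 2. *Cd3e* was seen in 22 of the 23 and 31 of the 34 with at least 3 members, and *Maf*, a regulator needed by type 17 gamma-delta cells, in 19 and 29. *Cd3e* was seen in 4 of the 13 and 1 of the 9 with none. Some of these barcodes without other members showed natural killer cell genes, with the receptor gene *Ncr1* in 6 and 3 and *Eomes* in 3 and 4. At least 2 of 7 natural killer markers were seen in 6 of 13 and 4 of 9. At least 2 of the 9 alpha-beta T markers were seen in 5 of 13 and 4 of 9, and in 11 of 23 and 12 of 34 with at least 3 members. *Ncr1* and *Eomes* were seen in 0 of the 23 and 0 of the 34. All 7 natural killer markers were seen in the Trdc-positive class of both libraries, at a summed 187 and 250 CPM, and the part of these cells in the class values was not tested.

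Outside the Trdc-positive class *Trgc2* had a second place. Among other Cd3-positive barcodes it gave 110 UMIs in 36 of 374 of UEIS LSL (9.63%, 6.83 to 13.1) and 20 UMIs in 6 of 216 of UEIS KI (2.78%, 1.03 to 5.95). The class had median totals of 9600 UMIs in UEIS LSL and 4128 in UEIS KI. Thinned to 1000 UMIs, *Trgc2* was seen in 8 of 366 (2.19%, 0.948 to 4.26) and 1 of 206 (0.485%, 0.0123 to 2.67), with intervals that overlap. Before thinning, *Trgc2* was the only member in 31 of the 36 and 4 of the 6. Of the 31 in UEIS LSL, *Trac* was seen in 30, the CD8 chain genes *Cd8a* and *Cd8b1* in 22 and 20, *Ifng* in 25 and *Nkg7*, a gene of cytotoxic granules, in 29. Of the 4 in UEIS KI, *Trac* was seen in 4, *Cd8a* in 3 and *Ifng* in 3. Most of these barcodes, picked because they showed none of the other 8 genes, carried markers of CD8 T cells. The *Trgc2* total over all kept barcodes came to 144 and 97 UMIs at the deposited depth, the opposite order to the Trdc-positive class.

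*Il17a* outside the class was seen in few barcodes. Among other Cd3-positive barcodes it gave 6, 11, 16 and 16 UMIs in 4 barcodes of UEIS LSL, of which 3 showed *Trgc1*, 3 *Trgc2* and 3 *Trac*, and all 4 *Trbc1* and *Trbc2*. In UEIS KI it gave 1, 1, 2, 3, 5 and 15 UMIs in 6 barcodes, all with *Trac*, of which 1 showed *Trbc1*, 5 *Trbc2*, 3 the regulatory T cell gene *Foxp3*, 1 *Trgc1* and 0 *Trgc2*. In the remaining barcodes it was seen in 2 of 8231 (0.0243%) and 12 of 8426 (0.142%), with 1 UMI in all but 2 of them. *Blk* in the remaining barcodes, 12 and 17, lay mainly with B cell genes, as 8 and 16 of these showed at least 2 of 6 B cell markers. Among the remaining barcodes marked as B cells it was seen in 8 of 52 (15.4%, 6.88 to 28.1) and 16 of 71 (22.5%, 13.5 to 34.0), at median depths of 4281 and 1346 UMIs.

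Other genes that followed the members were ranked by the Pearson correlation, over kept barcodes, of a gene's detection with the number of the 9 members detected, for 12588 genes, as a description in which barcodes share library, depth and cell type. *Actn2*, which encodes an alpha-actinin, came first in both libraries, with r = 0.607 over 8647 barcodes and r = 0.718 over 8685. It was seen in 18 and 22 of the Trdc-positive barcodes and in 38 and 29 of all. The chemokine receptor gene *Cxcr6* had r of 0.466 and 0.565, and *Ly6g5b*, of the Ly6 family, 0.414 and 0.389. Then came *Cd3g* (0.384 and 0.463), *Trgc4* (0.469 and 0.371), *Cd3e* (0.362 and 0.421), *Cd247* (0.337 and 0.369) and *Cd3d* (0.327 and 0.376), all parts of the T cell receptor complex. The water and glycerol channel gene *Aqp3* (0.317 and 0.496) and the CD45-associated *Ptprcap* (0.290 and 0.348) completed the list. Of the 30 highest genes of each library, 24 were shared.

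Of 28 genes of the type 17 program, 18 were measured in Trdc-positive barcodes. At least 1.5-fold higher in UEIS KI were 7 of them (*Actn2*, *Cxcr6*, *Icos*, *Il18r1*, *Jaml*, *Lmna* and *Rora*), against 13.6% of all genes of the class, and *Ckb* was lower, against 14.7%. Their median log2 ratio was 0.26, against 0.03 for all genes of the class. *Cxcr6* went from 340 to 669 CPM, a log2 ratio of 0.98 (0.60 to 1.35), but from 41.7 to 39.8 per 100 *Cd3* UMIs, at -0.07 (-0.44 to 0.31). Per *Cd3* UMI *Actn2* stood at -0.42 (-1.09 to 0.26) and *Maf* at -0.65 (-1.10 to -0.21). *Lmna*, a nuclear lamina gene, went from 447 to 735 CPM, at 0.72 (0.38 to 1.06). The membrane genes *Tmem176a* and *Tmem176b* stood at 334 and 357 CPM and at 621 and 633 CPM, with log2 ratios of 0.10 (-0.36 to 0.55) and 0.03 (-0.31 to 0.36), although over all barcodes they were at -1.41 and -1.52. Of the 17 genes of the interferon-gamma program 7 were measured, with *Klrk1* at least 1.5-fold higher, *Ccl5* and *Xcl1* lower, 4 neither and a median of 0.02, against the same shares of all genes. *Ccl5* gave 103 UMIs in 12 barcodes and 39 in 4, *Nkg7* 70 in 12 and 41 in 7, and *Il2rb* 54 in 25 and 44 in 20. *Klrk1* gave 41 UMIs in 19 barcodes and 37 in 21.

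The receptor segment list held 17 genes, of which 5 were measured in the class, 3 of them higher (*Cd3d*, *Cd3e* and *Cd3g*), against 13.6% of genes, and *Cd247* and *Trgc4* neither. Over all kept barcodes the same 5 genes had a median of -1.30, with 4 at least 1.5-fold lower, against 10.4% of all genes. The variable segments were nearly absent from these 3' counts, with *Trgv1* at 2 and 0 UMIs in Trdc-positive barcodes, *Trgv2* at 1 and 2, *Trgv4* at 0 in both and *Trgv6* at 1 and 0. Among the interleukin 17 family and its receptors, 10 genes besides *Il17re*, none reached 50 UMIs in the class. *Il17f*, the sister cytokine of *Il17a*, was seen there in 0 and 2 barcodes, and *Il17ra*, the receptor chain shared by the family, gave 7 and 18 UMIs. Over all kept barcodes *Il17ra* stood at 48.1 and 54.6 CPM, a log2 ratio of 0.18, the adaptor gene *Traf3ip2* at 4.30 and 4.68 CPM, and *Il17rc*, its partner receptor chain, at 3.93 and 1.43, at -1.45 (-1.77 to -1.15).

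Of the 9 cytokines upstream of interleukin 17, 8 were measured over all kept barcodes, with 0 at least 1.5-fold higher, against 4.01% of all genes, and 3 lower (*Il12b*, *Il6* and *Il7*), against 10.4%. Their median was -0.42, against -0.0044 for all genes. *Il1b* stood at 1413 and 1037 CPM, *Tgfb1* at 304 and 286, *Il18* at 21.1 and 23.2 and *Il1a* at 14.2 and 15.4. *Il23a*, the subunit specific to interleukin 23, gave 43 and 35 UMIs. In Trdc-positive barcodes *Il1b* gave 281 and 12 UMIs and *Tgfb1* 108 and 40, beside the macrophage marker sums given above. Of 14 genes that respond to interleukin 17, 13 were measured over all kept barcodes, with 4 at least 1.5-fold higher (*Lcn2*, *Mmp9*, *S100a8* and *S100a9*), against 4.01% of all genes, 3 lower (*Csf2*, *Il6* and *Mmp3*), against 10.4%, and a median of -0.07. *S100a8* went from 26.2 to 185 CPM and *S100a9* from 19.5 to 175, and both are also neutrophil markers. The summed level of the 5 neutrophil markers went from 57.0 to 392 CPM over the same barcodes, and its part in these values was not tested. *Cxcl2*, a neutrophil chemokine gene, stood at 2807 and 2336 CPM, *Nfkbiz* at 189 and 180, *Cxcl1* at 135 and 106 and *Zc3h12a* at 40.9 and 41.5.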

How the data were processed

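CD45+ cells of 2 tumour samples were profiled, 1 library per group. Values are the authors' deposited counts, raw whole-number UMIs for each gene in each barcode. The submitters' processing notes name Cell Ranger 2.1.1 and mm10, and the file headers name version 8.0.1. The annotation is not given in the sources used here, and coordinates come from GENCODE vM21 by gene identifier (52081 of 55357 matched, 94.1%). Barcodes under 500 UMIs or 200 detected genes, or with over 10% of UMIs from mitochondrial genes, were dropped. Those with the highest Scrublet scores (0.8% per 1000 barcodes, through scanpy 1.11.5) were left out as doublets, which left 8647 and 8685.

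Counts were summed per class. Shares carry exact Clopper-Pearson intervals and ratios exact conditional binomial intervals at 95%, and CPM values are per 1000000 UMIs of the class. A gene was measured with at least 50 UMIs over both libraries, a fold of 1.5 was the limit, and no test was made. A count of 0 allows up to 3 counts. Ratios were checked on simulated gene totals drawn as independent counts. Such totals hold no spread between barcodes, so the intervals were not checked against it. The members and gene lists were chosen with earlier results of these data known. All 9 members are named, with up to 4 genes per list by UMIs in Trdc-positive barcodes, the genes a count of 5 or fewer refers to, and up to 10 genes by likeness. Genes named beside these, and the sets of barcodes by *Scart1* and *Scart2*, were chosen after their values were seen.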

Additional observations from a re-analysis of the deposited data

How the results depend on the processing

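No paired analysis was possible because each group held 1 library. With the deposited barcodes the log2 ratio of the Trdc-positive share was 0.03, 6 members passed the fold limit over all kept barcodes and 4 within Trdc-positive barcodes. With every barcode thinned to 1000 UMIs and classes drawn again, these counts were 1 and 1. With barcodes under 2 C1q UMIs per 1000 alone, the share ratio was 0.70 and 3 members passed over all kept barcodes, and with a fold of 2 the count was 2. The other settings, among them a mitochondrial limit of 20%, at least 500 genes, 2 *Trdc* UMIs and called doublets kept, kept these counts within 1.5 times and the share within its counting interval, although with called doublets kept the count within Trdc-positive barcodes was 6.

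Of 380 values for single members under the alternatives, 332 stayed within the counting interval and 37 moved beyond it. Another 11, reported at 1.5-fold or more, changed sign. Changes of sign in values reported at less than 1.5-fold were not counted. Under thinning, over all kept barcodes, *Scart1* stood at 0.90 (level) and 0.49 (share), *Trgc2* at 0.36 and 0.56, *Trdc* at 0.084 and *Trgc1* at 0.16, and the *Scart1* share in Trdc-positive barcodes at 1.22. With C1q-low barcodes the *Trgc2* share stood at 0.015. With each barcode weighted alike *Trdc* stood at 0.050 and *Trgc2* at 0.46, and per *Cd3* UMI, an alternative chosen after seeing the data, *Il23r* stood at -0.044. The cause was not tested. Leaving out the barcode with most UMIs of a gene, also chosen afterwards, left all 52 values within the counting interval. No value reported at 1.5-fold or more changed sign there.

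The depth limits *Il23r* and *Il17re* most, with 13 and 52 UMIs in all. Variation between mice was not measured.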

Other observations

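Barcodes left out by the quality limits or as doublets, 880 in UEIS LSL and 1049 in UEIS KI, also held members. *Trdc* was seen in 6 and 13 of them, *Scart1* in 4 and 3 and *Scart2* in 0 and 7. *Il17a* gave 28 UMIs in 7 of these barcodes in UEIS LSL and 150 UMIs in 11 in UEIS KI, beside 144 and 297 UMIs in the barcodes that were kept.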
